A study of Mus musculus with 24 samples.

Results

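Mitochondrial DNA (mtDNA) is the small circular genome that every mitochondrion carries apart from the chromosomes of the nucleus. The genes described here are all rows of the count table whose symbol starts with mt-, which were 37 of 56691 genes: 13 protein-coding, 2 rRNA and 22 tRNA genes. The rule used the gene symbol alone and no measured value. Both strands of mtDNA are copied into long precursor RNAs, which are cut into mRNAs, rRNAs and tRNAs, largely at the tRNA sequences that lie between the other genes. All mtDNA-encoded proteins are subunits of the respiratory chain or of ATP synthase. They are assembled with many more subunits encoded in the nucleus, and the mtDNA-encoded rRNAs and tRNAs serve the mitochondrial ribosome that makes them.

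Total RNA was sequenced from mice in which endometriosis, the growth of uterine lining outside the uterus, had been set up by surgery. The 6 groups of 4 libraries each were endometriotic lesions, eutopic uterus, meaning the uterus of mice with endometriosis, and the uterus of mice after sham surgery (sham), at 3 months and at 1 month after surgery. Surgery was done at 8 weeks of age, so the 3-month mice were also older, and all tissue was collected on pregnancy day 3.5, when the mouse uterus is close to receiving the embryo. The strain background was mixed C57BL/6 and SV129 throughout. Eutopic and sham libraries carry the genotype Rosa26mTmG/+, a fluorescent reporter that changes colour where Cre acts. The lesion libraries carry Pgrcre/+Rosa26mTmG/+, in which Cre is made from the progesterone receptor gene. The series text gives that genotype to the mice with endometriosis as a whole. By the library labels, tissue and genotype cannot be told apart between lesions and eutopic uterus. Mice with endometriosis were labelled subfertile at 3 months and fertile at 1 month, and sham mice fertile at both times, so time, age and fertility label cannot be told apart in the mice with endometriosis. The labels do not tie libraries to single mice, so the p-values below measure the spread between libraries.

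Library totals lay between 45133642 and 59407134 counts. Several lesion libraries carried high levels of marker transcripts of other tissues. Summed markers of skeletal muscle (14 genes) reached 46813, 18802 and 9291 counts per 1000000 counts of the library (CPM) in 3-month lesions 2, 3 and 4, against 6.68 CPM in 3-month lesion 1 and 125 to 172 CPM in 3-month eutopic uterus. Markers of ovary and steroid synthesis (10 genes) reached 24328 CPM in 3-month lesion 1, against 55.6 to 66.3 CPM in 3-month eutopic uterus. Markers of exocrine pancreas (10 genes) reached 90455 CPM in 1-month lesion 2, against 5.54 to 7.99 CPM in 1-month eutopic uterus. Defining genes of the uterus were far lower in 3-month lesions 1 and 2 than in eutopic uterus. Hoxa10, a homeobox gene of the uterus, had 0.831 and 10.7 CPM there, 224 and 97.6 CPM in 3-month lesions 3 and 4, and 383 to 456 CPM in 3-month eutopic uterus. Hand2, a stromal transcription factor, had 0.831, 6.37, 21.3 and 13.5 CPM in 3-month lesions, against 70.7 to 97.5 CPM in 3-month eutopic uterus, and the progesterone receptor gene Pgr had 7.00, 11.4, 155 and 53.5 CPM, against 200.2 to 268 CPM. Pgr is also the gene that carries Cre in the lesion genotype, and the part of this in its level was not tested. The epithelial gene Epcam had 25.5, 4.21, 139 and 77.6 CPM in 3-month lesions, against 122 to 143 CPM in 3-month eutopic uterus. In 1-month lesions Hoxa10 had 192 to 364 CPM, against 376 to 455 CPM in 1-month eutopic uterus. Summed markers of epithelium (10 genes) were 166, 45.6, 3372 and 1597 CPM in 3-month lesions, against 1050.3 to 1553 CPM in 3-month eutopic uterus, and 1165 to 2010.4 CPM in 1-month lesions, against 908 to 1653 CPM in 1-month eutopic uterus. Summed markers of uterine stroma (9 genes, among them Hoxa10, Hand2 and Pgr) lay at 909 to 4261 CPM in 3-month lesions, against 3742 to 3952 CPM in 3-month eutopic uterus, and at 2177 to 3785 CPM in 1-month lesions, against 3254 to 4525 CPM in 1-month eutopic uterus. Smooth muscle markers (8 genes) were lower, at 1860.0 to 6407 CPM in 3-month lesions, against 7996 to 14625 CPM in 3-month eutopic uterus, and at 5751 to 9913 CPM in 1-month lesions, against 9102 to 13744 CPM in 1-month eutopic uterus. Immune and fat markers were higher in every 1-month lesion than in 1-month eutopic uterus, and spread more widely in 3-month lesions. Macrophage markers (9 genes) lay at 227 to 6775 CPM in 3-month lesions, against 289 to 469 CPM in 3-month eutopic uterus, and at 1126 to 2781 CPM in 1-month lesions, against 344 to 461 CPM in 1-month eutopic uterus. Markers of B and plasma cells (7 genes) lay at 126 to 10798 CPM in 3-month lesions, against 1338 to 3514 CPM in 3-month eutopic uterus, and at 3209 to 13532 CPM in 1-month lesions, against 1096 to 1976 CPM in 1-month eutopic uterus. Those of T cells (9 genes) lay at 14.6 to 666 CPM in 3-month lesions, against 27.0 to 72.9 CPM in 3-month eutopic uterus, and at 156 to 473 CPM in 1-month lesions, against 41.1 to 55.2 CPM in 1-month eutopic uterus. Those of adipocytes (9 genes) lay at 161 to 3279 CPM in 3-month lesions, against 52.4 to 148 CPM in 3-month eutopic uterus, and at 317 to 1027 CPM in 1-month lesions, against 58.1 to 177 CPM in 1-month eutopic uterus. The part of these tissues in the results below was not tested. Values without the most affected libraries are given in places. The 3-month lesions left there, 3 and 4, still held 18802 and 9291 CPM of skeletal muscle markers, so these values are not free of muscle tissue. In bulk tissue, fewer cells of a type and less RNA per cell cannot be told apart.

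Of the 37 genes, 9 carried nearly all mtDNA counts. mt-Co1, a catalytic subunit of complex IV (cytochrome c oxidase), had a median of 596738.5 counts per library (408916 to 837049). mt-Cytb, the mtDNA-encoded subunit of complex III, had a median of 321552 counts. Among the complex I subunits, which pass electrons from NADH into the chain, mt-Nd5 had a median of 197573 counts, mt-Nd1 183206, mt-Nd4 130796.5, mt-Nd2 113398.5 and mt-Nd6 19215.5. The large rRNA mt-Rnr2 had a median of 34595.5 counts and the small rRNA mt-Rnr1 16711. Counts per kilobase of gene put mt-Co1 at the top, with a level of 7391 ± 1265 CPM per kilobase (SD, n = 24), followed by mt-Cytb at 5262 ± 1068 and mt-Nd1 at 3655 ± 797. Among the protein-coding genes of this set the lowest level was that of mt-Nd6, at 699 ± 179 CPM per kilobase.

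The other 6 protein-coding genes were almost uncounted, although their mRNAs belong to the same precursors. The complex IV subunits mt-Co2 and mt-Co3 had 8 to 67 and 7 to 51 counts per library. The ATP synthase subunits mt-Atp6 and mt-Atp8 had 4 to 31 and 2 to 35 counts, and the complex I subunits mt-Nd3 and mt-Nd4l 2 to 31 and 0 to 10. All 6 lie side by side on mtDNA between mt-Co1 and mt-Nd4. In the GENCODE M21 annotation (build GRCm38; the deposited table was made on mm39, per the submitters' processing notes) this stretch of mtDNA, chrM:6390-11042, is matched by 7 pseudogenes in the same order on the minus strand of chromosome 1, chr1:24611535-24616197. The copies of mt-Nd4l (Gm10222), mt-Nd3 (Gm28438), mt-Co3 (Gm28437), mt-Atp6 (Gm10925), mt-Co2 (Gm28661) and the 5′ part of mt-Nd4 (Gm28439) aligned with 0 mismatches, and the copy of the 3′ part of mt-Co1 (Gm29216) with 1 mismatch, A1066T, counted from the 5′ end of mt-Co1. mt-Atp8 has no annotated copy of its own. It lies at chrM:7766-7969, and its end overlaps mt-Atp6, which starts at chrM:7927. The rest of mt-Atp8 lies in a gap between the copied parts of its neighbours. That gap is 233 bases long on chromosome 1 as on mtDNA.

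The start of mt-Nd4l and of its chromosome 1 copy, and the edge of the copied stretch within mt-Co1, show how alike the sequences are. Both are printed from GENCODE M21 with capitals marking bases that are the same at that position in the mtDNA gene and in the copy, and the mt-Co1 stretch covers bases 1054 to 1122 of the gene.
mt-Nd4l: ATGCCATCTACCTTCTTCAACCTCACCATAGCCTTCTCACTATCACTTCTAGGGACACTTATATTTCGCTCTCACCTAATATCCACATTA
Gm10222: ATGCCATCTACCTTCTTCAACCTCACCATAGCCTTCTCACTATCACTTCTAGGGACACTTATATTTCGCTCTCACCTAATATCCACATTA
mt-Co1: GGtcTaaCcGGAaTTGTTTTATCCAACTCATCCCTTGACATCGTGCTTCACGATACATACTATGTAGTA
Gm29216: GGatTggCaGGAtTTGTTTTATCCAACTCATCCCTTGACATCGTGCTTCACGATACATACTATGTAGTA
The mt-Nd4l pair is identical over all 90 bases shown, and the mt-Co1 pair is alike from base 1063 of mt-Co1 on, but for the mismatch given above.

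Of all 100-base windows, 99.9% in mt-Co3, 99.5% in both mt-Co2 and mt-Atp6, 98.5% in mt-Nd4l and 97.6% in mt-Nd3 also occur in a nuclear transcript, against 60.8% in mt-Nd4, 30.8% in mt-Co1, 3.19% in mt-Nd2 and 0% in mt-Nd1, mt-Nd5, mt-Nd6, mt-Cytb and both rRNA genes. The shares depend on window length. With 50-base windows they were 51.1% in mt-Co1, 8.19% in mt-Nd2, 7.61% in mt-Nd5 and 1.04% in mt-Rnr2. They stayed at 0% in mt-Nd1, mt-Nd6, mt-Cytb and mt-Rnr1. The 7 nuclear copies were low as well, with 172 to 532 counts per library in all. How reads that match more than 1 place were treated is not given in the sources used here. The levels of the 5 genes with shared windows throughout, and those of mt-Nd4 and mt-Co1 in part, are therefore uncertain, and shares below hold only what was counted. mt-Atp8 shares no window of 50 or 100 bases with an annotated nuclear transcript but lies inside the copied stretch. Such windows are longer than its overlap with mt-Atp6, and the chromosome 1 sequence in the gap was not compared.

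**Figure D1:**
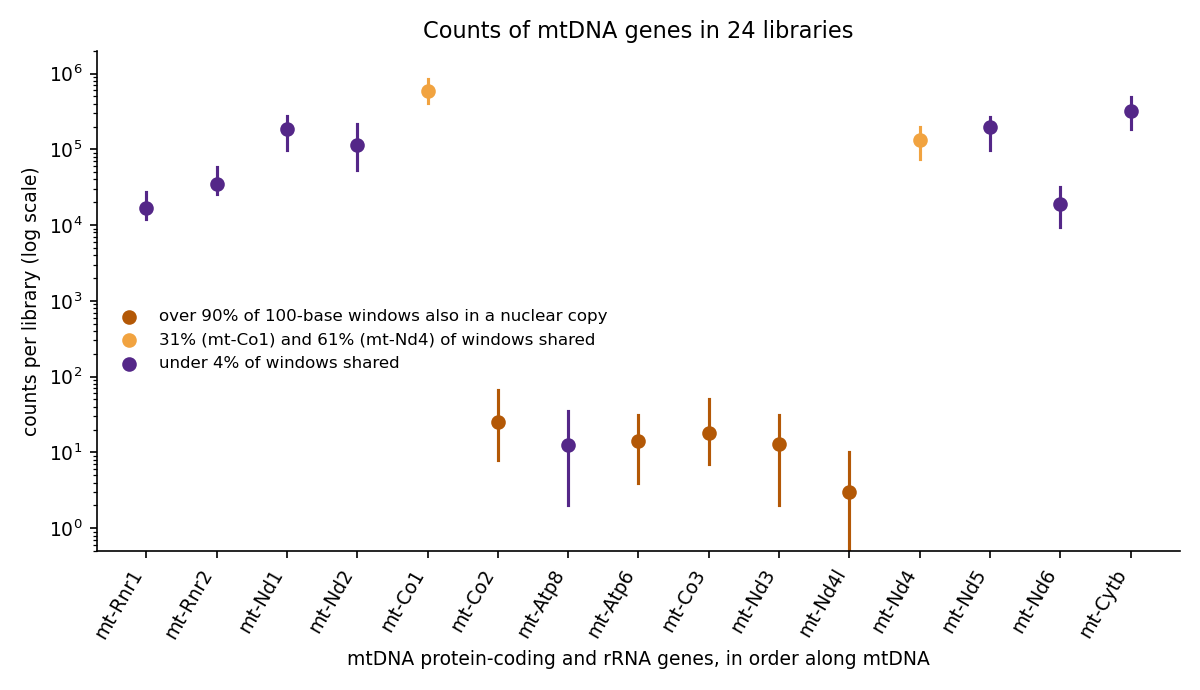
Counts per library (log axis) of the 13 protein-coding and 2 rRNA genes in their order along mtDNA; points are medians over 24 libraries and lines run from the lowest to the highest library, colours give the share of 100-base windows that also occur in a nuclear transcript. The 6 genes from mt-Co2 to mt-Nd4l reach at most 67 counts, while their neighbours mt-Co1 and mt-Nd4 have at least 408916 and 74138; the lower end of mt-Nd4l, at 0 counts in 4 libraries, is drawn at the bottom of the axis.

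The tRNA genes were barely represented in the counts. How the libraries were prepared, by poly(A) tail, by size or with removal of rRNA, was not taken into account. Shares of counts, here and below, are therefore not shares of RNA in the tissue. All 22 together had 45 to 163 counts per library, the lowest share being 8.36e-05% of the library in 3-month lesion 4 (95% Wilson interval 6.25e-05 to 0.000112%). No count was seen for 7 of them in any library (mt-Tf, mt-Tk, mt-Tg, mt-Th, mt-Tr, mt-Ts2 and mt-Tl2), where 0 counts allow up to 3 counts over all 24 libraries. The highest counts were those of mt-Tt (8 to 51), mt-Tw (4 to 49) and mt-Tp (3 to 38), which carry threonine, tryptophan and proline, and mt-Tm, which carries methionine, had 1 to 20. These 4 are printed 5′ to 3′ in DNA letters from GENCODE M21, with the anticodon in capitals, since they are the tRNA genes whose values are given below.
mt-Tt: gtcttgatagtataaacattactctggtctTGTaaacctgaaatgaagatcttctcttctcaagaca
mt-Tw: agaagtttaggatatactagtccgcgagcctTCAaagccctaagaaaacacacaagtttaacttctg
mt-Tp: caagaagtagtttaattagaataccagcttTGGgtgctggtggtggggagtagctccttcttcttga
mt-Tm: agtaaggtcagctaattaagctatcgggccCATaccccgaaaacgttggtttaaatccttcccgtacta
mt-Tt and mt-Tp lie next to each other on opposite strands after mt-Cytb, at chrM:15289-15355 and chrM:15356-15422. mt-Tw lies at chrM:4950-5016 and mt-Tm at chrM:3845-3913, on either side of mt-Nd2 (GRCm38).

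Summed over the 37 genes, mtDNA transcripts took 2.03 to 4.10% of library counts, with a median of 3.04%. At 3 months the share was 3.54, 4.10, 3.60 and 2.03% in the 4 lesions, 2.80, 3.62, 3.25 and 3.90% in eutopic uterus and 2.37, 3.48, 3.89 and 3.16% in sham uterus, with means of 3.32 ± 0.893%, 3.39 ± 0.478% and 3.23 ± 0.646% (SD, n = 4 each). The 3 groups overlapped, and lesion 4 held the lowest share of all 24 libraries; without it the lesion mean was 3.75%. At 1 month the share was 2.56, 2.33, 2.699 and 2.58% in lesions, 2.83, 3.35, 3.204 and 3.40% in eutopic uterus and 2.92, 2.67, 2.73 and 2.73% in sham uterus, with means of 2.54 ± 0.154%, 3.20 ± 0.256% and 2.76 ± 0.109%. Every 1-month lesion lay below every 1-month eutopic library and sham overlapped both lesions and eutopic uterus. These shares are sums over the genes and were not tested. The 95% Wilson intervals of single libraries were at most 0.0108 percentage points wide, and cover counting error only.

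By class, protein-coding genes took 1.93 to 3.95% of library counts, rRNA genes 0.0722 to 0.166% and tRNA genes 8.36e-05 to 0.000299%. The rRNA share averaged 0.136 ± 0.0259% in 3-month lesions, 0.121 ± 0.0331% in 3-month eutopic and 0.101 ± 0.0267% in 3-month sham libraries, against 0.0810 ± 0.00499%, 0.0938 ± 0.00661% and 0.0816 ± 0.00846% in 1-month lesions, eutopic and sham libraries. Complex I genes held 38.2 to 43.5% of mtDNA counts in all libraries but 2, which were 3-month lesion 4 at 30.8% and 1-month eutopic library 3 at 36.8%. The complex IV genes, in effect mt-Co1, held 47.2% of mtDNA counts in 3-month lesion 4, against 36.7 to 37.3% in the other 3-month lesions. The nuclear rRNA row Rn18s-rs5, which carries ribosomal RNA of nuclear origin, varied from 0.176 to 1.01% of counts over the 24 libraries; its part in the mtDNA rRNA share was not tested.

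**Figure D2:**
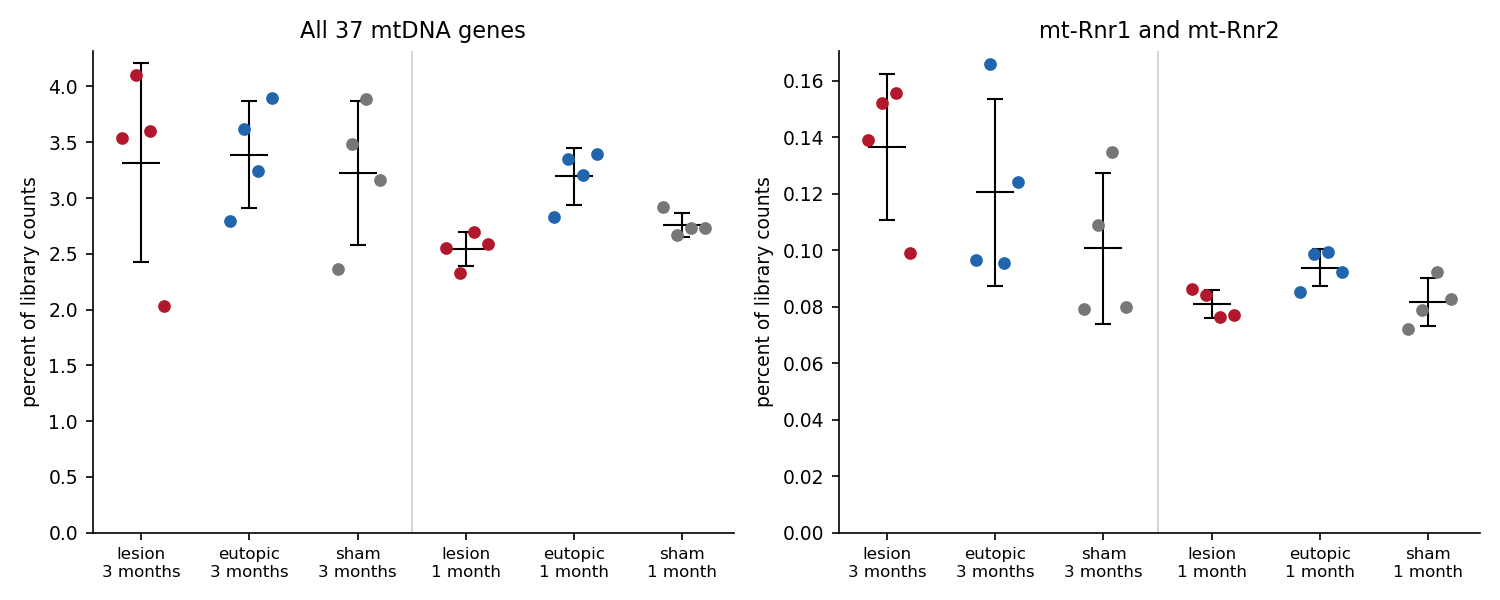
Percent of library counts taken by the 37 mtDNA genes (left) and by the 2 mtDNA rRNA genes (right) in each library; points are libraries, horizontal bars group means and error bars SD (n = 4), with 3-month groups left of 1-month groups. The 1-month lesions, at 2.33 to 2.699%, lie below the 1-month eutopic libraries at 2.83 to 3.40%, and 3-month lesion 4 lies apart at 2.03%.

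Differences between groups were tested with edgeR's quasi-likelihood test, with p-values adjusted by Benjamini-Hochberg over all genes tested and a gene called at an adjusted p under 0.05. The filter on low counts kept 19 of the 37 genes, namely 12 protein-coding genes, both rRNAs and 5 tRNA genes, and left out mt-Nd4l and 17 tRNA genes. Fold changes use TMM-scaled library sizes, so they can differ from ratios of the CPM values, which use plain totals.

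Lesions differed from eutopic uterus most plainly in mt-Nd6, the complex I subunit that is the single mRNA encoded on the light strand of mtDNA (chrM:13552-14070, minus strand). Its level in 3-month lesions was 297, 319, 279 and 198 CPM, against 369.7, 395, 379 and 454 CPM in 3-month eutopic uterus. In 1-month lesions it was 319.9, 206, 230.2 and 258 CPM, against 393, 485, 424 and 498 CPM in 1-month eutopic uterus. At both times every lesion was below every eutopic library. The log2 difference was -0.33 ± 0.17 (SE) at 3 months, which was not called (adjusted p = 0.12), and -0.69 ± 0.17 at 1 month, where mt-Nd6 fell (adjusted p = 0.0083). The difference between these differences was 0.35 ± 0.24 (adjusted p = 0.53).

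At 1 month mt-Nd6 was the 1 gene of the 19 tested that was lower in lesions and none was higher, while 8.76% of all 22249 genes tested were lower and 12.0% higher. The call held under all 16 alternatives run, with adjusted p between 0.0012 and 0.027. At 3 months mt-Nd6 was called lower with plain library totals (-0.55 ± 0.17, adjusted p = 0.016), without lesion 2 (-0.50 ± 0.16, adjusted p = 0.023) and without the 3 lesions richest in other tissues (-0.58 ± 0.19, adjusted p = 0.018), which were 3-month lesions 1 and 2 and 1-month lesion 2. Whether reads were counted by strand is not stated in the labels or processing notes, so mt-Nd6 reads cannot be told apart from heavy-strand precursor RNA that crosses the gene. Sham uterus had 274, 433, 440.2 and 331 CPM at 3 months and 536, 373, 429 and 394 CPM at 1 month.

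mt-Nd6 was lower in lesions also relative to the heavy-strand mRNAs of the same libraries. Per 100 counts of the 12 heavy-strand protein-coding genes, 3-month lesions had 0.879, 0.815, 0.817 and 1.04 mt-Nd6 counts, against 1.39, 1.16, 1.22 and 1.22 in 3-month eutopic uterus. The 1-month lesions had 1.31, 0.928, 0.885 and 1.04, against 1.45, 1.51, 1.38 and 1.53 in 1-month eutopic uterus. Lesions did not overlap eutopic uterus at either time, with means of 0.887 ± 0.104 against 1.25 ± 0.1001 at 3 months and 1.04 ± 0.192 against 1.47 ± 0.0663 at 1 month (SD, n = 4 each). Sham means were 1.20 ± 0.0887 at 3 months and 1.64 ± 0.205 at 1 month, where the 3-month libraries lay below the 1-month libraries with no overlap. Set against mt-Cytb alone the ratio overlapped, at 5.08 ± 0.616 mt-Nd6 counts per 100 mt-Cytb counts in 3-month lesions against 5.88 ± 0.573 in 3-month eutopic uterus, and 5.29 ± 1.01 in 1-month lesions against 6.79 ± 0.395 in 1-month eutopic uterus. These ratios were chosen after their values were seen and were not tested.

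**Figure D3:**
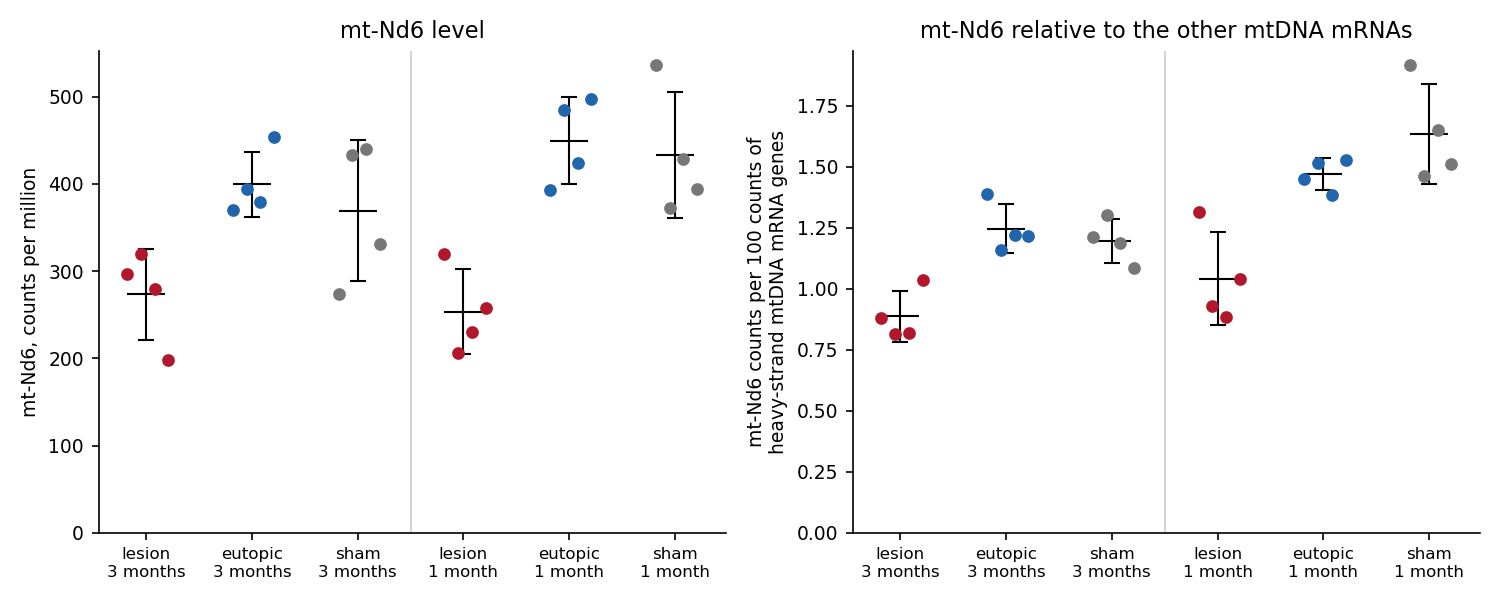
mt-Nd6 in each library as CPM (left) and as counts per 100 counts of the 12 heavy-strand mtDNA mRNA genes (right); points are libraries, horizontal bars means and error bars SD (n = 4). Lesions (red) lie below eutopic libraries (blue) at both times in both panels.

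The 6 heavy-strand mRNAs with high counts were not called in either comparison, with log2 differences between -0.10 and 0.48 at 3 months and between -0.32 and 0.12 at 1 month. The level of mt-Co1 was 13214, 15298, 13199 and 9603 CPM in 3-month lesions, against 9523, 13312, 12319 and 14816 CPM in 3-month eutopic uterus. It was 9197, 9060.1, 9899 and 9727 CPM in 1-month lesions, against 10429.5, 12722, 12464 and 12709 CPM in 1-month eutopic uterus. The groups overlapped at 3 months and did not at 1 month (log2 0.26 ± 0.16, adjusted p = 0.21, at 3 months; -0.20 ± 0.16, adjusted p = 0.39, at 1 month).

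The level of mt-Cytb was 5393, 6705, 6361 and 3482 CPM in 3-month lesions, against 5530.4, 7375, 6488 and 8028 CPM in 3-month eutopic uterus. It was 4833, 4385, 5314 and 4705 CPM in 1-month lesions, against 5478, 6979, 6788 and 7309.9 CPM in 1-month eutopic uterus. Again the groups overlapped at 3 months only (-0.10 ± 0.18, adjusted p = 0.69, and -0.32 ± 0.18, adjusted p = 0.22). As a share of all mtDNA counts, however, mt-Cytb took 15.2 to 17.7% in 3-month lesions, against 19.8 to 20.6% in 3-month eutopic and 20.2 to 21.8% in 3-month sham libraries, with no overlap. In 1-month libraries the ranges were 18.2 to 19.7% in lesions, against 19.3 to 21.5% in eutopic and 18.6 to 20.4% in sham uterus.

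mt-Nd1, the complex I subunit encoded next to the rRNA genes, had 4312, 5053, 4250.3 and 1846 CPM in 3-month lesions, against 3347, 4122, 3455 and 4206 CPM in 3-month eutopic uterus. It had 2769.9, 2575, 3081 and 2933 CPM in 1-month lesions, against 2948, 3793, 3439 and 3890.2 CPM in 1-month eutopic uterus. The groups overlapped at both times, and lesion 4 at 3 months was far below the other lesions. The log2 differences were 0.25 ± 0.22 at 3 months (adjusted p = 0.39) and -0.16 ± 0.22 at 1 month (adjusted p = 0.63). Without lesion 4 the 3-month difference was 0.48 ± 0.17, with an adjusted p of 0.035, and without lesion 2 it was -0.0011 ± 0.21.

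Among the rRNAs, which form the core of the mitochondrial ribosome, mt-Rnr1 had 497, 448, 463 and 319.8 CPM in 3-month lesions, against 258, 524, 284 and 391 CPM in 3-month eutopic uterus. It had 245, 278, 219.6 and 242 CPM in 1-month lesions, against 252, 319.9, 336 and 302 CPM in 1-month eutopic uterus. The groups overlapped at both times, with log2 differences of 0.46 ± 0.21 at 3 months (adjusted p = 0.092) and -0.14 ± 0.21 at 1 month (adjusted p = 0.67). mt-Rnr2 had 893, 1073, 1093 and 671 CPM in 3-month lesions, against 706, 1135, 671 and 852 CPM in 3-month eutopic uterus. It had 618, 565, 543 and 530.3 CPM in 1-month lesions, against 599, 666, 658 and 621 CPM in 1-month eutopic uterus. These too overlapped, with log2 differences of 0.36 ± 0.18 (adjusted p = 0.11) and -0.02 ± 0.18 (adjusted p = 0.94).

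At 3 months, 2 of the 19 genes tested were higher in lesions than in eutopic uterus and none was lower, while 23.4% of all genes tested were higher and 17.1% lower, 40.5% in all. Both were genes of very few counts. mt-Tm had 7, 17, 15 and 7 counts in 3-month lesions, against 1, 2, 6 and 6 counts in 3-month eutopic uterus (log2 1.73 ± 0.52, adjusted p = 0.012). mt-Atp8 had 8, 9, 15 and 7 counts in 3-month lesions, against 8, 6, 2 and 2 counts in 3-month eutopic uterus (1.18 ± 0.46, adjusted p = 0.044). The groups did not overlap for mt-Tm and overlapped for mt-Atp8, whose call was lost in 7 of 14 alternatives that tested it. Neither gene passed the filter on low counts, and so neither was tested, when only these 2 groups were fitted. In 3-month sham uterus, mt-Atp8 counts (given below) lay above those of every 3-month eutopic library and overlapped those of the lesions. Lesions were not tested against sham uterus.

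Single libraries decided the count of calls at 3 months. Without lesion 4, the library poor in mtDNA transcripts, 8 genes were higher in lesions: mt-Nd2 (0.76 ± 0.15, adjusted p = 0.00069), mt-Nd5 (0.45 ± 0.15), mt-Nd1, mt-Rnr2, mt-Tm, mt-Tt, mt-Tp and mt-Atp8. Without eutopic library 2, which had the highest rRNA share, 5 were higher: mt-Rnr1 (0.68 ± 0.21, adjusted p = 0.017), mt-Rnr2 (0.54 ± 0.18, adjusted p = 0.026), mt-Co3, mt-Tm and mt-Atp8. Without lesion 2, lesion 3, eutopic library 3 or eutopic library 4, 1 was higher, and without lesion 2 mt-Nd6 was lower.

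The remaining genes named by their counts showed no call in either comparison. mt-Tt had 51, 44, 25 and 15 counts in 3-month lesions, against 11, 18, 20 and 25 in 3-month eutopic uterus, and 21, 22, 8 and 22 in 1-month lesions, against 18, 14, 28 and 14 in 1-month eutopic uterus. mt-Tw had 36, 38, 49 and 4 counts in 3-month lesions, against 32, 18, 9 and 14 in 3-month eutopic uterus, and 16, 4, 9 and 14 in 1-month lesions, against 29, 8, 15 and 5 in 1-month eutopic uterus. mt-Tp had 37, 24, 23 and 3 counts in 3-month lesions, against 22, 13, 10 and 8 in 3-month eutopic uterus, and 38, 19, 20 and 12 in 1-month lesions, against 14, 13, 8 and 17 in 1-month eutopic uterus. All of these overlapped. mt-Atp6 had 6, 19, 12 and 13 counts in 3-month lesions, against 7, 10, 7 and 10 in 3-month eutopic uterus (0.69 ± 0.44, adjusted p = 0.22). It had 4, 9, 14 and 21 counts in 1-month lesions, against 18, 25, 17 and 17 in 1-month eutopic uterus (-0.48 ± 0.43, adjusted p = 0.45), and overlapped at both times. Over the 19 tested genes the median log2 difference was 0.46 at 3 months and -0.16 at 1 month, against 0.04 and -0.01 over all genes tested. The 3-month median was 0.17 without lesion 2, 0.63 without lesion 4 and 0.25 with plain library totals, and 0.03 over the 20 mtDNA genes tested without the 3 lesions richest in other tissues. The 1-month median was -0.31 with plain library totals.

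**Figure D4:**
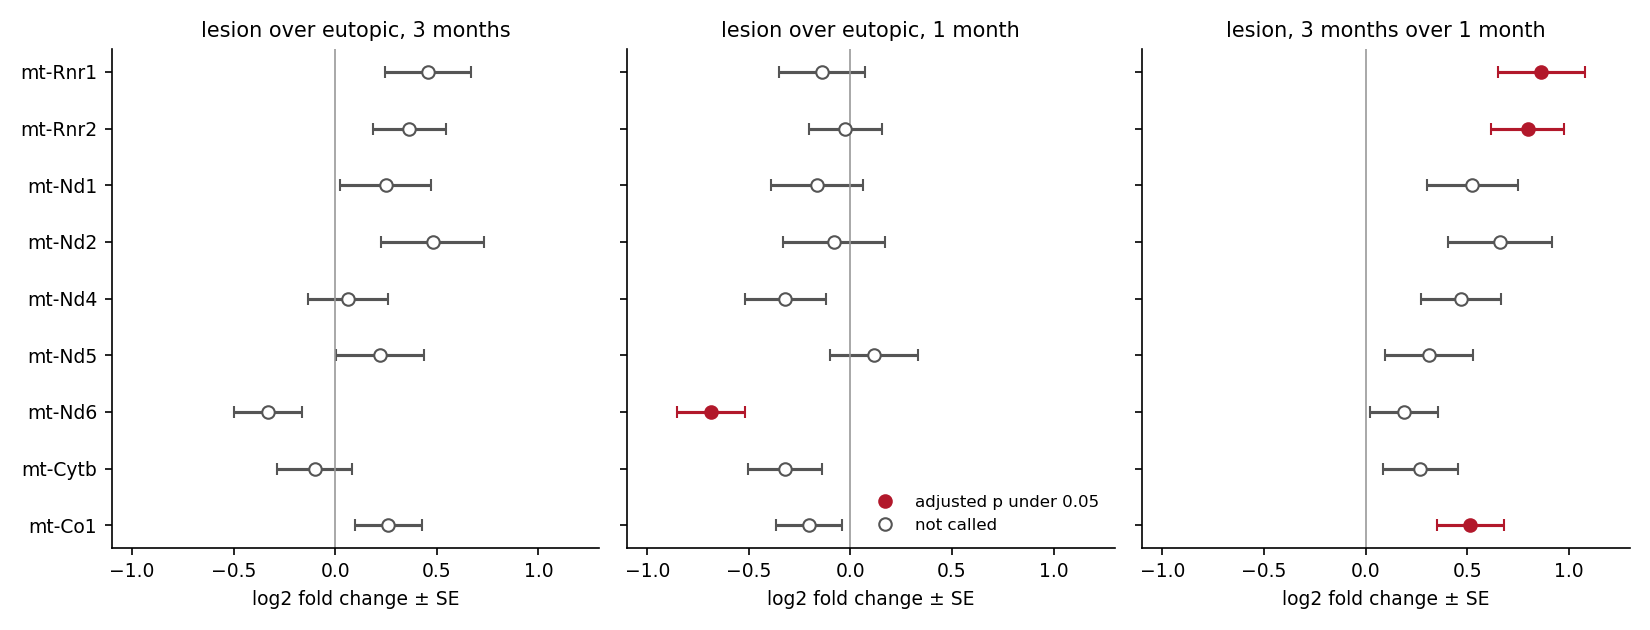
log2 fold changes with SE of the 9 mtDNA genes with 9320 or more counts in every library, for lesion over eutopic at 3 months, lesion over eutopic at 1 month and 3-month over 1-month lesions; filled red points have an adjusted p under 0.05. At 1 month mt-Nd6 alone is called (-0.69), and between lesion times mt-Rnr1 (0.86), mt-Rnr2 (0.80) and mt-Co1 (0.52).

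Between the lesion groups, 3 of the 19 genes tested were higher at 3 months than at 1 month and none was lower, while 6.52% of all genes tested were higher and 4.43% lower. Both rRNAs were among them. mt-Rnr1 rose by 0.86 ± 0.21 on the log2 scale (adjusted p = 0.013) and mt-Rnr2 by 0.80 ± 0.18 (adjusted p = 0.0084), and for both every 3-month lesion was above every 1-month lesion. mt-Co1 rose by 0.52 ± 0.16 (adjusted p = 0.048), with overlap between the groups. The skeletal muscle and ovary markers given above also differed between these groups. Without the 3 lesions richest in other tissues the rRNA calls remained (mt-Rnr1 0.83 ± 0.25, adjusted p = 0.043; mt-Rnr2 0.74 ± 0.21, adjusted p = 0.030) and that of mt-Co1 was lost (0.34 ± 0.17, adjusted p = 0.21). When only the lesion libraries were fitted, 0 of all 19979 genes tested were called, the mtDNA genes included, against 2697 at an unadjusted p under 0.05. Without 1-month lesion 3, 1 gene was called, and without 3-month lesion 4, 8 were called, among them mt-Nd2 (0.94 ± 0.15, adjusted p = 0.00080), mt-Nd1, mt-Nd4 and mt-Nd5.

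Relative to the mtDNA mRNAs, rRNA counts were 4.09, 3.85, 4.52 and 5.12 per 100 mRNA counts in 3-month lesions, against 3.49, 3.75, 2.91 and 3.08 in 1-month lesions, and the groups did not overlap. In eutopic uterus they were 3.57, 4.81, 3.03 and 3.29 at 3 months, against 3.10, 3.03, 3.201 and 2.80 at 1 month, and in sham uterus 3.46, 3.23, 3.59 and 2.59 at 3 months, against 2.54, 3.05, 3.51 and 3.13 at 1 month; both pairs overlapped. These values are a description and were not tested.

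The uterus itself showed no call in any mtDNA gene. Between eutopic and sham uterus, 0 of the 19 genes tested were called at 3 months, where 0% of all 21208 genes tested were called, and 0 at 1 month, where 0.00943% were called. DESeq2 also called none. At an unadjusted p under 0.05 there were 6 of 19 at 3 months, against 4.74% of all genes tested, and 3 of 19 at 1 month, against 4.8% of all genes tested. The 9 well-counted genes differed by at most 0.32 ± 0.16 on the log2 scale at 3 months (mt-Rnr2) and by at most 0.26 ± 0.15 at 1 month (mt-Cytb). Of the 6 genes at 3 months, 4 lie in the stretch matched on chromosome 1, among them mt-Atp8, which had 8, 6, 2 and 2 counts, against 12, 14, 35 and 21 in sham uterus (-2.002 ± 0.48, adjusted p = 0.997), with no overlap. The 6 genes of that stretch together took 0.00250 to 0.00337% of mtDNA counts in 3-month eutopic uterus, against 0.00599 to 0.00770% in 3-month sham uterus, with no overlap. This sum holds the 4 genes just named, so it adds no separate evidence, and it was not tested.

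Across time, 0 of 19 genes were called between 3-month and 1-month eutopic uterus, where 0.00943% of all genes tested were called, and 0 between 3-month and 1-month sham uterus, where 0% were. DESeq2 again called none, and 5 of 19 genes in each comparison had an unadjusted p under 0.05, against 2.48% of all genes tested in eutopic and 10.7% in sham uterus. In eutopic uterus these included mt-Rnr2 (0.40 ± 0.16) and mt-Atp8 (-1.90 ± 0.48), and in sham uterus they were 2 ATP synthase and 3 tRNA genes of few counts. mt-Nd6 differed by -0.25 ± 0.14 in sham uterus (adjusted p = 0.57). The test of whether the lesion effect differed between times called 0 of 19, against 0.769% of all genes, with 3 of 19 at an unadjusted p under 0.05, against 14.8% of all genes.

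Nuclear genes that serve mtDNA and its products were read from lists of 10 functions. Calls over all genes also moved with the fit. At 3 months 5202 were higher and 3811 lower, and 4503 to 5708 and 3127 to 5154 leaving out 1 library. With only those 2 groups fitted they were 1889 and 1378 of 20005, and with plain library totals 3848 and 5323. At 1 month 2659 were higher and 1948 lower, and 1489 to 2496 and 1068 to 2210 leaving out 1 library. Plain library totals gave 1998 and 2799, and no filter 2055 and 1355. Of the nuclear-encoded subunits of complexes I, III, IV and V, the partners of the mtDNA-encoded subunits, 31 of 74 tested (41.9%) fell in 1-month lesions, against 8.76% of all genes tested, and none rose, with a median log2 difference of -0.40 against -0.01 over all genes. In 3-month lesions 10 rose (13.5%) and 6 fell (8.11%), shares below the 23.4% and 17.1% over all genes tested, with a median of 0.01. At 1 month the number that fell was 46 without the lesions richest in other tissues, 51 without eutopic library 1, 11 to 13 without another eutopic library and 14 to 24 without 1 lesion; it was 53 with plain library totals and 19 with no filter on low counts. At 3 months, without those lesions, 5 rose and 6 fell, with plain library totals 3 rose and 13 fell, and with only the 3-month lesion and eutopic libraries fitted 3 rose and 2 fell. Without those lesions 5024 of all genes tested rose and 4339 fell at 3 months, and 3318 rose and 2780 fell at 1 month.

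The complex IV subunit Cox4i1 fell to 195 ± 12.9 CPM in 1-month lesions, against 359 ± 78.6 CPM in eutopic uterus (-0.73 ± 0.16, adjusted p = 0.0043). Its isoform Cox4i2 fell to 2.02 ± 0.583 CPM, against 5.44 ± 1.42 CPM (-1.29 ± 0.28, adjusted p = 0.0046), and the complex I subunit Ndufa7 to 45.5 ± 3.43 CPM, against 82.8 ± 19.0 CPM (-0.72 ± 0.16). In 3-month lesions Cox6c fell to 151 ± 30.2 CPM, against 303 ± 66.7 CPM (-0.80 ± 0.17), while Cox7a1, an isoform known from heart and skeletal muscle, rose to 9.20 ± 7.03 CPM, against 0.969 ± 0.310 CPM (3.53 ± 0.53). Other muscle isoforms, Cox6a2 and Cox8b, reached 93.4 and 27.7 CPM in lesion 2, the library with the highest skeletal muscle markers, against 0.0923 and 0.0185 CPM in lesion 1, which had the lowest. Both were chosen after their values were seen. Cox7a1 did not follow the muscle markers in the same way. It had 4.37 CPM in lesion 1, near the 4.74 CPM in lesion 4, and 19.4 and 8.29 CPM in lesions 2 and 3. The part of muscle tissue in these genes was not tested.

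Of 54 proteins of the mitochondrial ribosome, 18 fell in 1-month lesions (33.3%, against 8.76% of all genes tested; median -0.30) and 6 in 3-month lesions (11.1%, below the 17.1% of all genes tested; median -0.15), and none rose at either time. Mrpl28 fell to 24.4 ± 2.28 CPM in 1-month lesions, against 42.9 ± 9.36 CPM, and Dap3, a protein of the small subunit, to 51.4 ± 14.3 CPM in 3-month lesions, against 78.7 ± 6.27 CPM. Leaving out 1 library gave 6 to 34 genes at 1 month, the highest without eutopic library 1, and 1 to 13 at 3 months, the lowest without lesion 2 and the highest without lesion 1. With plain library totals 23 fell at 3 months, and with only those 2 groups fitted, 0.

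Of 16 genes for transcription and replication of mtDNA, 3 fell and 1 rose in 3-month lesions. There 18.8% lower was near the 17.1% of all genes tested, and 6.25% higher was below the 23.4%. In 1-month lesions 6 fell (37.5%, against 8.76% of all genes tested) and 1 rose (6.25%, against 12.0%). Ssbp1, the single-strand binding protein of mtDNA, fell to 32.9 ± 5.75 CPM in 3-month lesions, against 51.0 ± 9.36 CPM, and to 34.6 ± 3.12 CPM in 1-month lesions, against 51.1 ± 8.61 CPM. Tfb2m, the transcription factor that opens mtDNA promoters for the RNA polymerase, fell to 12.2 ± 2.06 CPM in 1-month lesions, against 18.8 ± 1.16 CPM. Without 1 library, 1 to 6 of these genes fell at 3 months and 1 to 5 at 1 month, where the lowest number was found without lesion 2 or lesion 4. With only the 3-month lesion and eutopic libraries fitted, 0 were called at 3 months.

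Of 21 genes for processing, stability and decay of mitochondrial RNA, 3 fell at each time and none rose. This share of 14.3% was below the 17.1% of all genes tested at 3 months and above the 8.76% at 1 month. Prorp, the nuclease that cuts tRNAs free at their 5′ ends, fell to 14.8 ± 6.56 CPM in 3-month lesions, against 27.6 ± 1.92 CPM (-0.73 ± 0.17, adjusted p = 0.0018), and to 16.3 ± 2.63 CPM in 1-month lesions, against 29.5 ± 2.60 CPM (-0.72 ± 0.17, adjusted p = 0.0063). Hsd17b10, a partner of Prorp in that enzyme, fell to 43.7 ± 4.14 CPM in 1-month lesions, against 74.3 ± 11.9 CPM. Pnpt1, part of the complex that degrades mitochondrial RNA, fell to 51.1 ± 9.83 CPM in 1-month lesions, against 88.2 ± 8.54 CPM, and Slirp, which stabilises mitochondrial mRNAs together with Lrpprc, fell to 23.2 ± 2.78 CPM in 3-month lesions, against 35.3 ± 8.51 CPM. Without 1 library, 2 to 6 genes of this list fell at 3 months, the most without lesion 1, and 3 to 4 at 1 month. With only the 3-month lesion and eutopic libraries fitted, 0 were called at 3 months.

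Of 20 enzymes and factors that modify mitochondrial rRNA and tRNA, 9 fell (45%, against 17.1% of all genes tested) and 4 rose (20%, against 23.4%) in 3-month lesions, and 5 fell (25%, against 8.76%) and none rose in 1-month lesions. Leaving out 1 library gave 4 to 11 lower and 1 to 4 higher at 3 months, the fewest lower without eutopic library 2 and the fewest higher without lesion 1, and 1 to 7 lower at 1 month, the fewest without eutopic library 2 or lesion 4. Without the lesions richest in other tissues 7 fell and 1 rose at 3 months and 7 fell at 1 month, and with only the 3-month lesion and eutopic libraries fitted 2 fell and 0 rose at 3 months. Qtrt1, part of the enzyme that places queuosine in tRNAs, fell to 9.07 ± 2.72 CPM in 3-month lesions, against 20.6 ± 3.85 CPM (-1.004 ± 0.19). Mettl17, a factor of the small ribosomal subunit in mitochondria, fell to 20.7 ± 1.99 CPM in 3-month lesions, against 35.6 ± 7.25 CPM, and to 23.2 ± 1.18 CPM in 1-month lesions, against 35.5 ± 4.86 CPM. Mrm3, a methyltransferase of the large mitochondrial rRNA, fell to 6.25 ± 0.939 CPM in 3-month lesions, against 10.4 ± 0.850 CPM, and to 6.87 ± 1.16 CPM in 1-month lesions, against 10.7 ± 1.61 CPM.

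Genes of mitophagy, the removal of mitochondria, rose in 6 of 9 in 3-month lesions (66.7%, against 23.4% of all genes tested), with a median of 0.46. In 1-month lesions none rose and 1 fell (11.1%, against 8.76% of all genes tested). Sqstm1 rose to 445 ± 71.9 CPM in 3-month lesions, against 282 ± 5.55 CPM (0.87 ± 0.11), and Bnip3 to 68.4 ± 22.1 CPM, against 28.4 ± 3.97 CPM (1.49 ± 0.23). Without the lesions richest in other tissues, 5 rose at 3 months, 5 to 6 without any 1 library, and 4 with only the 3-month lesion and eutopic libraries fitted. Of 14 regulators of mitochondrial biogenesis, 5 rose in 3-month lesions (35.7%, against 23.4% of all genes tested), among them the nuclear receptor Esrrg at 5.14 ± 2.95 CPM, against 0.838 ± 0.195 CPM. In 1-month lesions 1 rose (7.14%, below the 12.0% of all genes tested). With only the 3-month lesion and eutopic libraries fitted, 2 rose at 3 months. Of 4 subunits of complex II, which holds no mtDNA-encoded protein, 2 rose in 3-month lesions (50%, against 23.4% of all genes tested). Among them was Sdhb at 99.9 ± 11.3 CPM, against 76.2 ± 5.86 CPM. In 1-month lesions 1 fell (25%, against 8.76% of all genes tested). Without the lesions richest in other tissues 1 rose at 3 months, and the median was -0.0033, against 0.22 with them. Of 16 genes of mitochondrial mass and import, 3 rose and 0 fell in 3-month lesions, and 18.8% higher was below the 23.4% of all genes tested. The direction turned without the lesions richest in other tissues, where 0 rose and 5 fell (median -0.10, against 0.11 with them), and without 3-month lesion 1 alone 3 rose and 5 fell. In 1-month lesions 3 fell (18.8%, against 8.76% of all genes tested), among them the import receptor Tomm20. Of 12 genes of the mitochondrial stress response, 4 rose (33.3%, against 23.4% of all genes tested) and 1 fell (8.33%, against 17.1%) in 3-month lesions. In 1-month lesions 1 rose (8.33%, below the 12.0% of all genes tested). Leaving out 1 library gave 3 to 6 higher and 1 to 3 lower at 3 months, the most higher without lesion 3 and the most lower without lesion 1. Without the lesions richest in other tissues, 4 rose and 2 fell at 3 months, and 1 rose and 2 fell at 1 month. Between eutopic and sham uterus none of the genes on the 10 lists was called at either time.

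**Figure D5:**
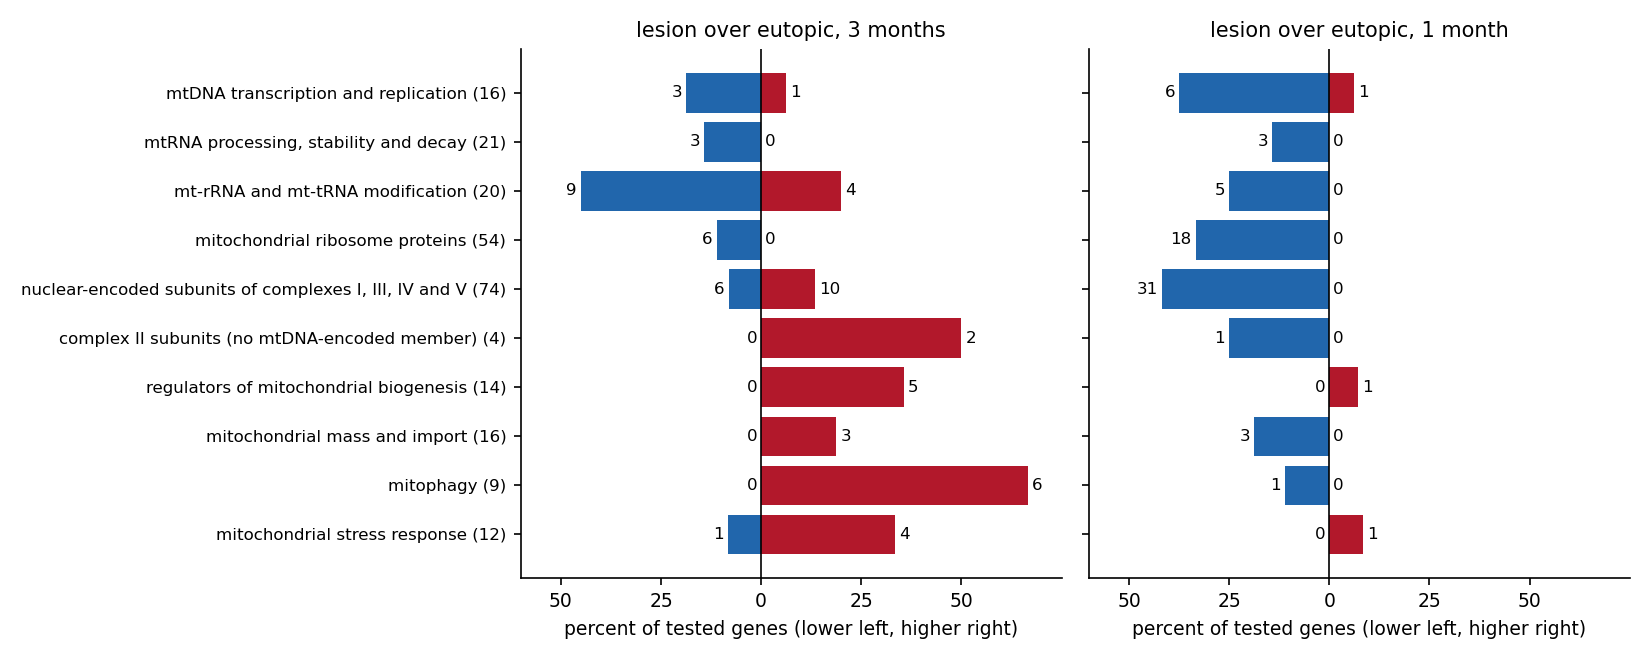
Percent of the tested genes of 10 mitochondrial gene lists that were lower (blue, to the left) or higher (red, to the right) in lesions than in eutopic uterus, at 3 months (left panel) and 1 month (right panel); numbers beside bars are genes called and those in brackets genes tested. Of the nuclear-encoded respiratory subunits, 31 of 74 were lower and 0 higher at 1 month, and 6 lower and 10 higher at 3 months.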

How the data were processed

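The deposited table holds whole-number read counts per gene, made by the authors with STAR 2.7.9a on mm39 after bcl2fastq 1.9.0, per the submitters' processing notes, which also name edgeR. The counting tool, annotation, strand setting and treatment of reads that match several places are not named there. Shares and CPM use library totals. Genes were tested with edgeR 4.0.16 (quasi-likelihood test, TMM scaling, filterByExpr, Benjamini-Hochberg adjustment, R 4.3.3): uterine comparisons on the 16 uterine libraries (21208 genes), lesion comparisons on all 24 libraries (22249 genes), with no covariates. Calls were repeated with DESeq2 1.42.0, other scalings, no filter, only the groups compared, a replicate block, each library left out, and, as an alternative chosen after seeing the data, 3 lesions left out together. The text gives per-library values for mt-Rnr1, mt-Rnr2, mt-Co1, mt-Cytb, mt-Atp6, mt-Nd1, mt-Nd6, the 3 tRNA genes with the highest counts and every other mtDNA gene called between lesion and eutopic or eutopic and sham libraries. From each nuclear list it draws on up to 3 called genes per lesion comparison with the smallest p and no overlap between groups. The members and lists were chosen with earlier results of these data known. The tests were checked on simulated data with 100 genes changed 2-fold and 100 changed 4-fold. Between 3-month lesions and eutopic uterus 48 and 83 of these were called, and between 1-month eutopic and sham uterus 67 and 99. A gene that was not called can therefore still differ. Sequences and copies come from GENCODE M21 (GRCm38), where all 37 genes were found by symbol. Same-numbered 3-month and 1-month eutopic libraries had correlated deviations (0.122 to 0.442 over 11775 genes), which met the rule used for pairs (every correlation over 0.1). Only 2 of 4 correlated best with their own number, and the groups were collected at different times after surgery. The rule therefore does not show pairs of the same mouse. The replicate block called no mtDNA gene there either.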

Additional observations from a re-analysis of the deposited data

Results flagged for a closer look

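A library lay far from the other 3 of its group, past Dixon's 95% critical value for 4 libraries, in 2 of 108 groups tested; chance gives about 1 in 20. The level of mt-Co1 in 1-month eutopic library 1 was 10429.5 CPM, the lowest of its group, and that of mt-Nd1 in 3-month sham library 1 was 2409 CPM, the lowest of its group.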

How the results depend on the processing

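Between 3-month lesions and eutopic uterus, the 2 mtDNA genes called higher became 1 with plain library totals, with no filter on low counts and without the 3 lesions richest in other tissues, and 0 with only the groups compared; leaving out 1 library gave 1 to 8. The 0 called lower became 1 (mt-Nd6) with plain library totals and without those 3 lesions, and 0 to 1 leaving out 1 library. Between lesion times, the 3 called higher became 0 with only the groups compared, where 0 of all 19979 genes were called, and 1 to 8 leaving out 1 library. The test of the difference between the lesion effects gave 0 to 1 leaving out 1 library; without 3-month lesion 4 it called mt-Nd2 (0.85 ± 0.20, adjusted p = 0.036). Signs turned only for differences that were not called above. mt-Nd1 in 3-month lesions was -0.16 without the 3 lesions and -0.0011 to 0.48 leaving out 1 library. mt-Cytb there was -0.30 to 0.059, positive without lesion 4, and mt-Rnr2 in 1-month lesions was -0.10 to 0.010, positive without lesion 3 or lesion 4. The causes were not tested. Plain library totals moved the median of all genes to -0.15 at both lesion times and the split of calls to 3848 higher and 5323 lower at 3 months, against 5202 and 3811 with TMM, and to 1998 higher and 2799 lower at 1 month, against 2659 and 1948. All group shares stayed within 1 SD under the alternatives run. Leaving out 1 of 4 libraries cannot move a group mean by 1 SD, so those checks could not fail and decide nothing.

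With the replicate block, 0 genes were called higher between 3-month lesions and eutopic uterus and 0 between lesion times, where 0 of all 19979 genes were called, and mt-Nd6 stayed lower in 1-month lesions (-0.71 ± 0.13, adjusted p = 0.0089). Outside the eutopic libraries of both times, the deviations of same-numbered libraries correlated by -0.221 to 0.392, and no comparison met the rule used. The 1-month lesion and eutopic libraries came near it, with correlations of 0.0465 to 0.286 and 3 of 4 lesions closest to their own number. The lesions of both times had 0.0991 to 0.384. Whether same-numbered libraries come from the same mouse is not stated. In the genes with few counts, counting error limits what can be seen.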
